A study of Mus musculus with 6 samples.

Results

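Small leucine-rich proteoglycans are secreted matrix proteins whose core is built of leucine-rich repeats, and most carry chondroitin, dermatan or keratan sulfate chains. They bind collagen fibrils and set how the fibrils assemble, and several of them hold growth factors or engage cell-surface receptors. In brain they are known chiefly from the meninges and the matrix around blood vessels. The genes described here are Prelp, Bgn, Dcn, Lum, Fmod, Ogn, Omd, Aspn, Kera and Podn, taken by symbol as the 10 members of 19938 genes that could be named on the array. Where a gene has several rows, the row is chosen by its mean intensity over all 6 arrays, which is the measured value in the rule; each of the 10 had 1 row with a single symbol, so that step had nothing to choose. No row that carried several symbols named any of them.

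The arrays came from mixed neuron-glial cultures grown from the brains of OF1 mouse embryos at embryonic day 17, which differentiated in fetal calf serum. In serum-free medium, 3 cultures received 10 nM 1,25-dihydroxyvitamin D3 (1,25D), the hormone that acts through the vitamin D receptor, and 3 received vehicle. All 6 cultures shared the strain, the serum step and the later serum-free medium, and how long the hormone was present is unstated in the labels. The series asked which genes the hormone induces. RNA was amplified to biotin-labelled cDNA and hybridised to Affymetrix arrays, and values are log2 of the deposited intensity, where 1 unit is a doubling. A level is that of 1 row of the array and is compared between arrays, not between genes.

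Median intensity over all genes lay between 240.4 and 252.9 on the 6 arrays. The lower quartile of genes lay between 6.69 and 6.86 on the log2 scale, and members under it are called dim, since normalised values of dim genes compress differences and do not show whether a gene was expressed. Of the treatment checks, S100g, a calcium-binding protein and known target of the receptor, rose 2.95-fold (limma, adjusted p = 0.022), and Vdr, the receptor itself, had a 3.39-fold higher mean (adjusted p = 0.38). Vdr was 5.20-, 2.98- and 2.50-fold higher within replicate numbers 1, 2 and 3. A second limma fit, comparing arrays within equal replicate numbers, gave an adjusted p of 0.024 for S100g and 0.052 for Vdr. On the pair of arrays numbered 1, 1094 genes had the same value in control and 1,25D, and 0 of the 10 members was among them. Precision is limited by the number of arrays, and the smallest two-sided p that an exact permutation test can give for 3 arrays against 3 is 0.1.

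Prelp and Fmod lie next to each other in the RefSeq gene table, and their differences between treated and control cultures were unequal, so the 250 bases before the start listed for each are shown. Both are written 5′ to 3′ on the strand of the gene, from RefSeq's GRCm38.p6, and capitals mark matches to a hexamer of the vitamin D response element. Prelp lies on the minus strand, with the window at chr1:133921402-133921651, and Fmod on the plus strand, with the window at chr1:134037004-134037253.
Prelp: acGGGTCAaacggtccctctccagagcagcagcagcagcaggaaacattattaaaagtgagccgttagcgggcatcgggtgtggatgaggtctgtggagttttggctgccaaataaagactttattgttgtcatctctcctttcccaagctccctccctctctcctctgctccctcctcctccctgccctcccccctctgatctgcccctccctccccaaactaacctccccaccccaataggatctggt
Fmod: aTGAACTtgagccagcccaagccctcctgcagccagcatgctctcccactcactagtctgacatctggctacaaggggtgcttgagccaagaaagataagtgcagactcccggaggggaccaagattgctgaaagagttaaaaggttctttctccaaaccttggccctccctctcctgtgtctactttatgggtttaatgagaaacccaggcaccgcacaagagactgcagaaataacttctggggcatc

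The hexamers were searched on both strands and over 300 bases that include 50 after the start. They were AGGTCA and its variants AGTTCA (changed at the third base), GGGTCA (at the first) and GGTTCA (at both), each counted wherever it starts, with overlap allowed. The Prelp window held 1 match, GGGTCA, whose first base lay 248 bases before the start. The Fmod window held 1 match, on the opposite strand (TGAACT as written), 249 bases before the start. Of the 10 members, 8 had a window, with 9 windows in all since Podn has several starts, and 5 of the 9 held such a hexamer. Among all 32851 windows 43.7% held one. The full response element, a pair of these hexamers in direct repeat with 3 bases between them, was found in 0 of the 9 windows and in 0.0396% of all windows. These are matches of letters in a short window and describe neither binding nor a cause.

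Over the family, 0 of 10 members passed the test (limma without the block, adjusted p under 0.05), where 0.0251% of all genes were called. With the replicate number as a block, which compares arrays within equal numbers, it was again 0 of 10, where 0.0903% of all genes (18 against 5) were called. At an unadjusted p under 0.05 there were 2 of 10, Prelp and Podn, where 1.48% of all genes lay under it, and with the block the same 2, where 5.78% did. Prelp was the one member whose 3 treated arrays all lay above its 3 controls (2.63% of all genes), and Podn the one whose treated arrays all lay below (1.52%). The members were chosen with earlier results of these data known, so these counts beside all genes are a description and not a test of the family. The mean difference was above 0 for 6 of 10 members, where it was above 0 for 53.0% of all genes, and the median was 0.06 for the members and 0.01 for all genes.

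Prelp encodes a basic proteoglycan-family protein with a proline- and arginine-rich amino terminus, which binds heparan sulfate and collagen and is placed at basement membranes. Its log2 intensity was 11.34, 11.59 and 11.25 in controls 1, 2 and 3, and 12.28, 12.25 and 12.31 in 1,25D cultures 1, 2 and 3. On the linear scale this is 2432 to 3085 in controls and 4868 to 5089 with the hormone, so the groups did not overlap and the treated arrays lay closer together than the controls. The group means were 11.39 ± 0.18 and 12.28 ± 0.03 (SD, n = 3 each). The treated mean was 1.85-fold higher, with a log2 difference of 0.89 ± 0.11 (SE, 95% interval 0.62 to 1.15). Its adjusted p was 0.11 without the block and 0.057 with it (limma), so it missed the threshold in both fits, at place 11 and place 24 of all genes by unadjusted p. Within equal replicate numbers the difference was 0.94, 0.66 and 1.07, higher in 3 of 3 pairs and at least 1.5-fold in each. That held for 39 genes, or 0.196% of those measured. The 1.5-fold cut was not planned and lies close under the smallest pair of Prelp, 1.58-fold, so this share is a description and not a test. Without replicate 1, the blocked fit gave a difference of 0.86 and an adjusted p of 0.029, from 2 pairs, without replicate 2 a difference of 1.00 and an adjusted p of 0.45, and without replicate 3 a difference of 0.80 and an adjusted p of 0.064. With array weights and the block, a setting chosen after seeing the data that called 40 genes, the adjusted p was 0.029 for a difference of 0.83. The block with quantile normalisation, median centring or the filter on dim genes, also chosen after seeing the data, gave 0.090, 0.081 and 0.057. With 1 array left out and no block, the adjusted p lay between 0.11 and 0.57 (limma).

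**Figure D1:**
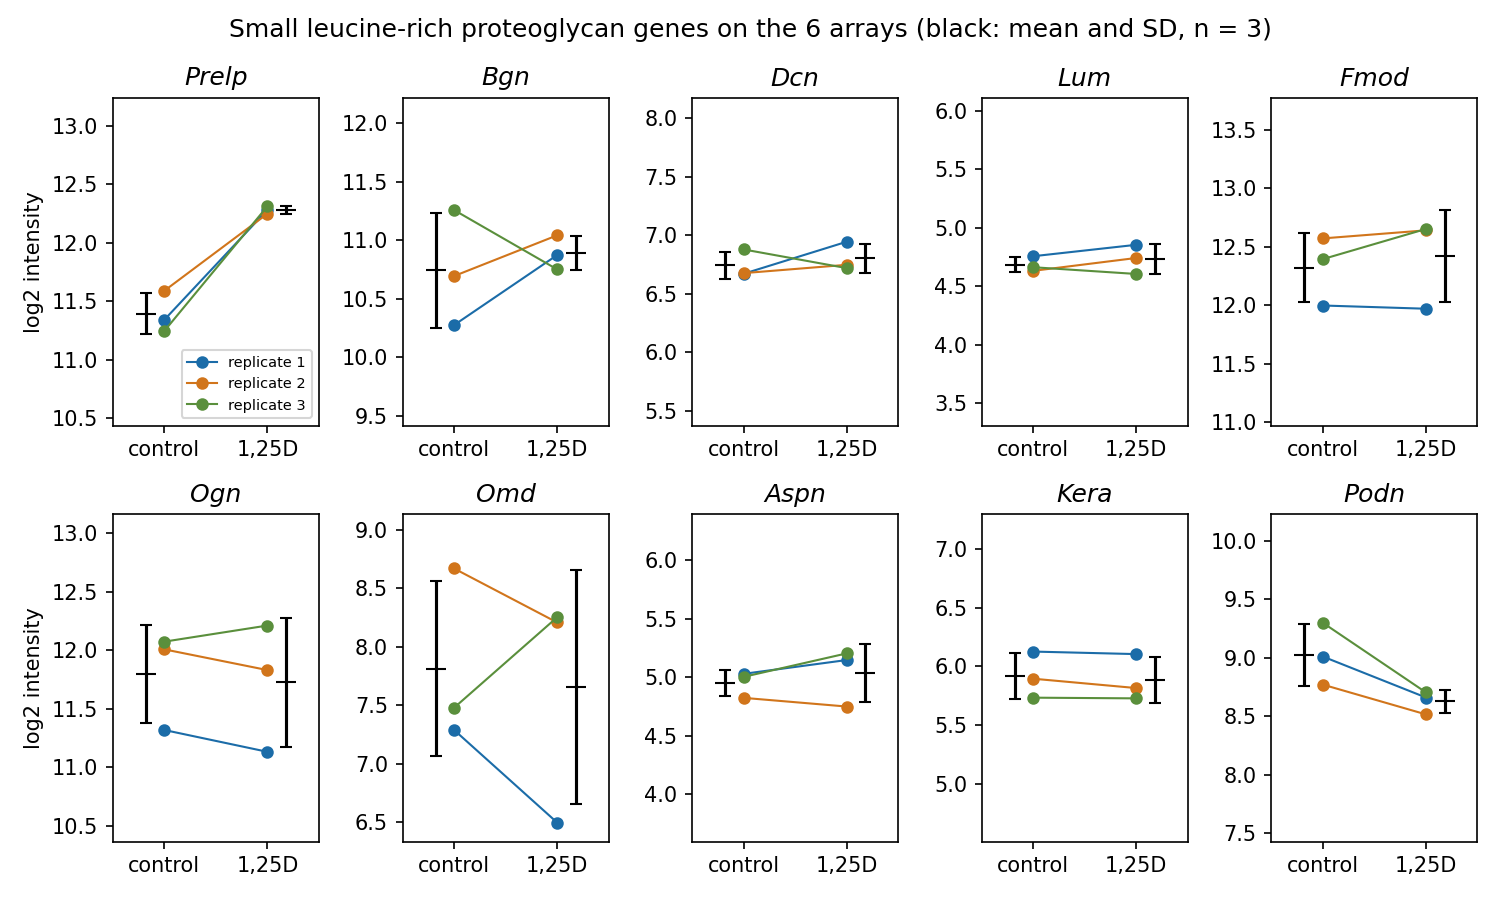
Log2 intensity (vertical axis, each panel spanning the same range) of the 10 genes in control and 1,25D cultures; coloured points are arrays, lines join equal replicate numbers, and black marks are the group mean and SD of 3 arrays. The lines of Prelp all climb from between 11.25 and 11.59 to between 12.25 and 12.31, those of Podn all descend, and the lines of Omd spread over 2.17 units.

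Fmod, fibromodulin, binds fibrillar collagen through a keratan sulfate-bearing core and is the neighbour of Prelp. Its intensity on the linear scale was 4085, 6079 and 5378 in controls 1, 2 and 3 and 4008, 6376 and 6429 with 1,25D. The groups overlapped, and the arrays numbered 1 were the lowest of each group. The log2 difference was 0.10 (95% interval -0.41 to 0.61, adjusted p = 1.00 by limma without the block and 0.91 with it). Taking the arrays in pairs narrowed the interval to -0.11 to 0.31. The log2 ratio of Prelp to Fmod on the same array was higher in the treated culture by 0.97, 0.59 and 0.81 in pairs 1, 2 and 3, so the differences of the adjoining genes were unequal in each pair; this ratio was not tested. Optc, opticin, a member of the wider family that adjoins Prelp on its other side, had a difference of -0.14 ± 0.15 (SE).

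Podn, podocan, belongs to a separate branch of the family and is known as a restraint on smooth muscle cell growth. Its values were 9.01, 8.77 and 9.30 in controls and 8.66, 8.52 and 8.70 with 1,25D. Every treated array lay below every control, though the gap between the groups was small beside the spread of the controls. The means were 9.03 ± 0.26 and 8.63 ± 0.10 (SD, n = 3 each), with a difference of -0.40 ± 0.14 (SE, 95% interval -0.74 to -0.06). The adjusted p was 1.00 without the block and 0.49 with it (limma), and the difference was -0.35, -0.25 and -0.59 in pairs 1, 2 and 3. With control 3 left out it was -0.26, and with control 2 left out -0.53. Its relative Podnl1 had a difference of 0.05 ± 0.10 (SE).

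Bgn, biglycan, carries chondroitin or dermatan sulfate chains and, when free of the matrix, is known as a ligand of Toll-like receptors. It measured 10.28, 10.69 and 11.26 in controls and 10.87, 11.04 and 10.75 in treated cultures. The treated arrays lay inside the range of the controls. Control 3 was the highest and control 1 the lowest of the 6 arrays, so the difference was 0.60 and 0.35 in pairs 1 and 2 and -0.51 in pair 3. Over all arrays it was 0.15 ± 0.23 (SE, 95% interval -0.39 to 0.68). The blocked fit without replicate 3 gave 0.47 (adjusted p = 0.16 by limma, from 2 pairs). Dcn, decorin, the closest relative of Bgn and a binder of TGF-beta and of the receptors Egfr and Met, lay near the lower quartile at 6.67 to 6.88 in controls and 6.72 to 6.95 in treated cultures, and was dim on 4 of the 6 arrays. Its difference was 0.06 (95% interval -0.19 to 0.32).

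**Figure D2:**
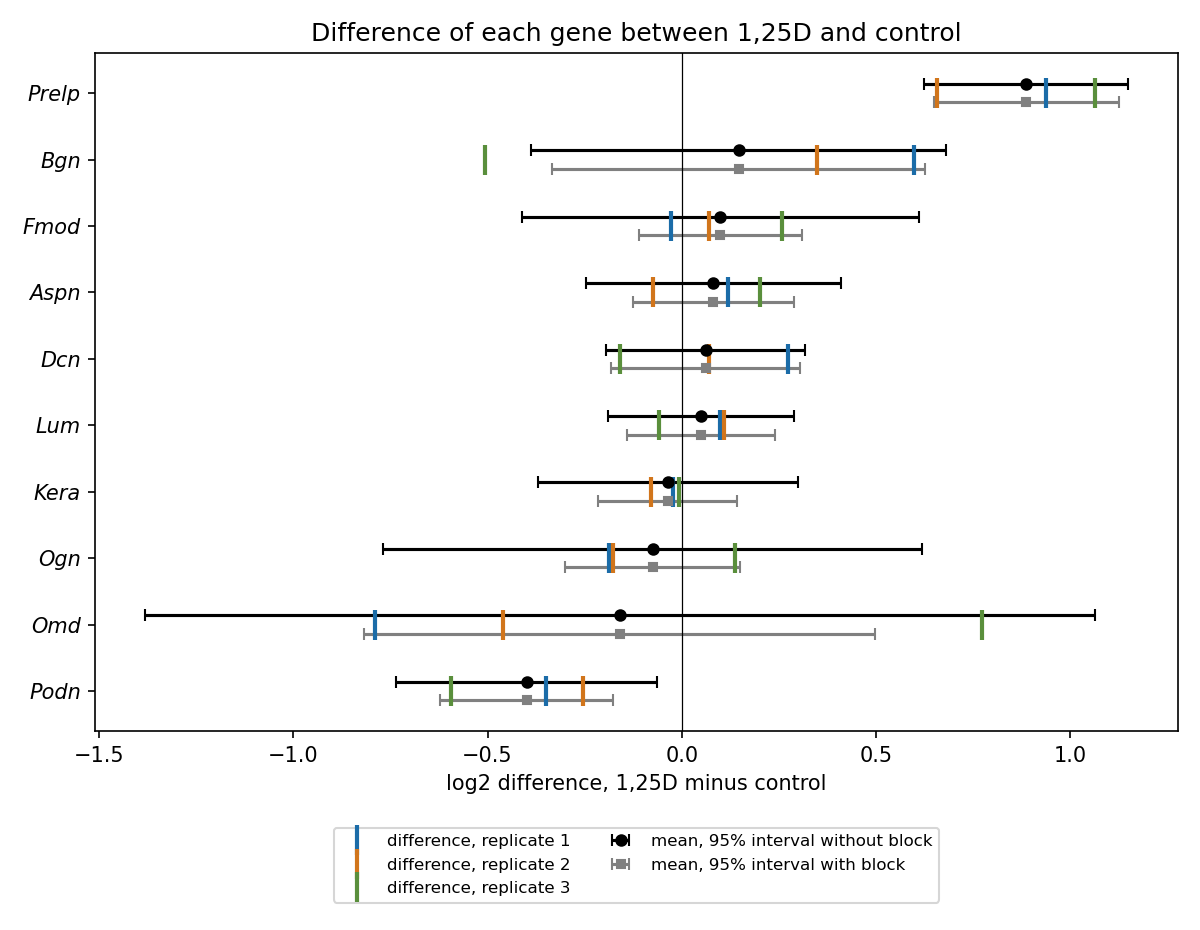
Log2 difference, 1,25D minus control (horizontal axis), for each gene, with the mean and 95% interval without the block (black) and with it (grey); coloured ticks are the differences within replicate numbers 1, 2 and 3. The intervals of Prelp (0.62 to 1.15) and Podn (-0.74 to -0.06) lie to one side of 0 before adjustment for the number of genes, and that of Omd is the widest (-1.38 to 1.06).

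Ogn, osteoglycin or mimecan, and Omd, osteomodulin, are neighbours in one chromosomal cluster with Aspn and Ecm2, and in both the SD of each group was larger than the difference between the groups. Ogn measured 11.32, 12.01 and 12.07 in controls and 11.13, 11.83 and 12.21 with 1,25D. The arrays numbered 1 were the lowest in both groups, and the group ranges nearly coincided. Its difference was -0.08 ± 0.30 (SE, 95% interval -0.77 to 0.62), and the interval narrowed to -0.30 to 0.15 with the block.

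Omd, a keratan sulfate proteoglycan best known from bone, had values of 7.29, 8.67 and 7.48 in controls and 6.50, 8.21 and 8.25 in treated cultures. The lowest and highest arrays stood 2.17 log2 units apart, and the SD within groups, 0.88, was larger than that of 99.8% of all genes. The lowest, treated culture 1 at 6.50, was the 1 array on which Omd was dim, and with that array left out the difference was 0.42. The difference was -0.79, -0.46 and 0.77 in pairs 1, 2 and 3, so pair 3 ran against the other pairs, and over all arrays it was -0.16 ± 0.53 (SE). The 95% interval was -1.38 to 1.06 without the block, which spans a doubling in either direction, and -0.82 to 0.50 with it, which does not. Without replicate 3 the blocked fit gave a difference of -0.63 for Omd (adjusted p = 0.10 by limma, from 2 pairs), and without replicate 1 it gave 0.16. Ecm2, a matrix protein of the same cluster that was not among the 10, also varied, at 9.45, 10.04 and 9.20 in controls and 8.97, 10.03 and 9.51 with 1,25D. In Omd and Ecm2 alike, control 2 was the highest control and treated culture 1 the lowest array of all.

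The arrays numbered 1 were the lowest of both groups for 3 of the 10 members, Fmod, Ogn and Omd, as they were for 13.2% of all genes. The SD within groups was larger than that of 92.9% of genes for Fmod, 94.0% for Bgn and 97.8% for Ogn. For Prelp it was larger than that of 36.2% of genes, so this gene combined the largest treatment difference of the family with a spread under the median of genes, which was 0.15.

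Lum, Kera and Aspn were dim on all 6 arrays, as were 21.2% of all genes, so their small differences say little. Lum, lumican, which spaces collagen fibrils in cornea and skin, ranged from 4.63 to 4.76 in controls and from 4.60 to 4.85 with 1,25D, with a difference of 0.05 ± 0.10 (SE). Kera, keratocan, a corneal member, measured 6.13, 5.90 and 5.73 in controls and 6.11, 5.82 and 5.73 with 1,25D. Its difference was below 0 in 3 of 3 pairs, at -0.02, -0.08 and -0.01, as it was for 11.0% of all genes, and the mean was -0.04 ± 0.14 (SE). Aspn, asporin, which has an aspartate-rich amino terminus and binds TGF-beta, ranged from 4.82 to 5.03 and from 4.75 to 5.20, with a difference of 0.08 ± 0.14 (SE).

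Most members lie in chromosomal clusters of the family. Dcn, Lum, Kera and Epyc adjoin each other, and their differences lay at 0.06, 0.05, -0.04 and 0.02. In the cluster of Ecm2, Aspn, Omd and Ogn they were -0.06, 0.08, -0.16 and -0.08. Optc, Prelp and Fmod form the third, with -0.14, 0.89 and 0.10.

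Of the 8 listed relatives outside the 10, 7 were measured and 0 passed in either fit, with differences between -0.14 and 0.09 and a median of 0.02. Chad, chondroadherin, a cartilage matrix protein, had a difference of -0.06 ± 0.11 (SE). Nyx, nyctalopin, known from retinal bipolar cells, measured 10.06 to 11.10 in controls and 10.27 to 11.06 in treated cultures, and the groups overlapped.

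The enzymes that build the sugar chains were also tested. Of 22 genes of chondroitin and dermatan sulfate synthesis 0 passed in either fit, with a median of -0.03 and differences between -0.29 and 0.23. The smallest unadjusted p-values belonged to Csgalnact1, which starts the chondroitin chain, at -0.29 ± 0.14, and B4galt7, which builds the linker between chain and core protein, at 0.23 ± 0.13 (SE). Of 8 genes of keratan sulfate synthesis 0 passed in either fit, with a median of -0.01. B3gnt2, a transferase that extends the poly-lactosamine backbone, measured 7.73, 7.38 and 7.24 in controls and 8.05, 7.75 and 7.88 with 1,25D. Its treated arrays all lay above its controls (2.63% of all genes), and its difference was 0.45 ± 0.15 (SE, adjusted p = 1.00 without the block and 0.39 with it by limma). Chst4, a sulfotransferase, had a difference of 0.12 ± 0.10 (SE).

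Among the binding partners, 0 of 12 collagens passed in either fit, with a median of -0.02. Col1a1, a chain of the main fibrillar collagen, measured 9.54, 9.01 and 9.45 in controls and 10.05, 9.65 and 9.54 with 1,25D. The highest control and the lowest treated array nearly met, and the difference was 0.42 ± 0.18 (SE, adjusted p = 1.00 without the block and 0.67 with it by limma). Col6a1, a chain of beaded-filament collagen, had a difference of -0.33 ± 0.15 (SE).

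Of 15 growth factors and receptors that the family binds, 0 passed in either fit, with a median of -0.03. Tgfb3, a TGF-beta ligand, measured 10.49, 10.57 and 10.93 in controls and 9.88, 10.28 and 10.24 in treated cultures. All treated arrays lay below the controls (1.52% of all genes), and the difference was -0.53 ± 0.16 (SE, adjusted p = 1.00 without the block and 0.33 with it by limma). Bmp2 had a difference of -0.26 ± 0.12 (SE). Among 12 proteases and their helpers 0 passed in either fit, with a median of 0.05. Mmp2, a gelatinase that can cleave decorin, measured 9.72, 9.42 and 9.49 in controls and 9.18, 9.26 and 8.82 in treated cultures. Its treated arrays all lay below its controls (1.52% of all genes), with a difference of -0.46 ± 0.14 (SE, adjusted p = 1.00 without the block and 0.54 with it by limma). B3gnt2, Tgfb3 and Mmp2 were named for the smallest unadjusted p of their lists, which favours genes whose groups are apart. Tll1, a relative of the protease Bmp1, had a difference of 0.27 ± 0.14 (SE).

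Of 23 other proteoglycans of brain, among them the lecticans, glypicans and syndecans, 0 passed in either fit, and the median was -0.02. Gpc3, a glypican, had a difference of 0.28 ± 0.14 and Vcan, versican, of -0.28 ± 0.17 (SE). At an unadjusted p under 0.05 there was 1 gene each among the keratan sulfate enzymes, the binding factors and the proteases (B3gnt2, Tgfb3 and Mmp2), and 0 in the other pathway lists, where 1.48% of all genes lay under it. With the block, where 5.78% did, there were 3 of 22 chondroitin and dermatan sulfate enzymes (Csgalnact1, B4galt7 and Chpf2), 1 of 8 keratan sulfate enzymes (B3gnt2), 2 of 12 collagens (Col1a1 and Col12a1), 1 of 15 binding factors (Tgfb3), 3 of 12 proteases (Mmp2, Tll1 and Adamts1), 4 of 23 other proteoglycans (Gpc3, Vcan, Bcan and Sdc2) and 0 of the 7 relatives. Chpf2, Col12a1, Adamts1, Bcan and Sdc2 were named after their values were seen.

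**Figure D3:**
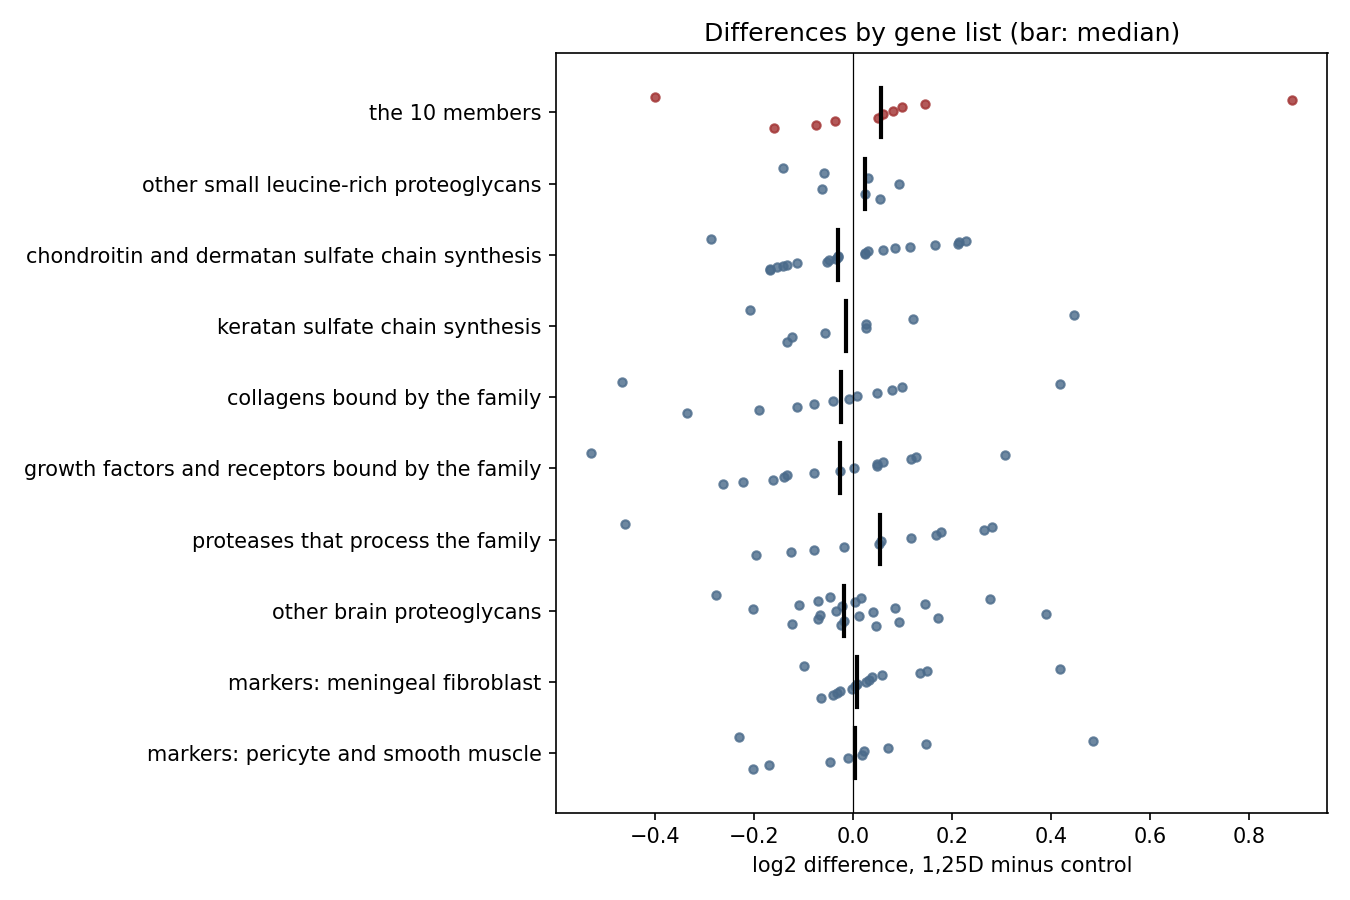
Log2 difference, 1,25D minus control (horizontal axis), of the 10 members (red), the 7 related gene lists and the markers of 2 stromal cell types (blue); each point is a gene and each black bar the median of its list. Prelp, at 0.89, lies to the right of every other gene shown, and the medians lie between -0.03 and 0.06.

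The cell types that could supply these transcripts were followed through their markers. Of 15 markers of meningeal fibroblasts 0 passed in either fit, 9 lay above 0, and the median was 0.01. Their summed linear intensity was 2790 to 3126 in controls and 2945 to 3545 in treated cultures, so the groups overlapped. Bright rows weigh most in such a sum, so overlap of the sums does not describe each marker. Col1a1 alone gave 514 to 743 in controls and 747 to 1059 in treated cultures. Aldh1a2, Foxc2 and Foxd1 were dim on all 6 arrays, and Igf2 had a difference of 0.14 ± 0.11 (SE). Of 10 markers of pericytes and smooth muscle 0 passed in either fit, 5 lay above 0, and the sum was 9347 to 10457 against 7886 to 10110. Pdgfrb, a receptor of pericytes, had a difference of 0.48 ± 0.20 and Tagln, a contractile protein, of -0.23 ± 0.11 (SE). Pdgfrb differed by 0.47, 0.39 and 0.60 in pairs 1, 2 and 3 (adjusted p = 0.23 by limma with the block). The treated arrays of Tagln all lay below its controls (1.52% of all genes). At an unadjusted p under 0.05 there were 1 of these 10 (Pdgfrb) and 0 of the 15 fibroblast markers (1.48% of all genes). With the block there were 2 (Pdgfrb and Tagln) and 1 (Col1a1), where 5.78% of all genes lay under it. The part of these cells in the values of Prelp and Podn was not tested, and in a culture measured as a whole fewer cells of a type and less RNA per cell cannot be told apart.

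Markers of neurons, of glial cell types and of endothelium gave 0 passing in either fit. All 8 astrocyte markers lay below 0, with a median of -0.08, where 53.0% of all genes lay above 0. Their median was -0.28, 0.02 and -0.10 in pairs 1, 2 and 3, so it was lowest in pair 1 and above 0 in pair 2. Aldh1l1 and Aqp4, a metabolic enzyme and a water channel of astrocytes, had differences of -0.27 ± 0.15 and -0.23 ± 0.27 (SE). Aqp4 differed by -0.65, -0.04 and -0.02 in pairs 1, 2 and 3. Of 8 neuron markers 1 lay above 0, with a median of -0.06, and Rbfox3 and Map2 had differences of -0.34 ± 0.14 and -0.29 ± 0.25 (SE). The treated arrays of Rbfox3 all lay below its controls (1.52% of all genes). It differed by -0.32, -0.25 and -0.46 in pairs 1, 2 and 3 (adjusted p = 0.50 by limma with the block). Slc17a6 was dim on all 6 arrays. The sums overlapped, at 29341 to 38285 in controls and 28752 to 38417 in treated cultures for astrocytes, and at 2966 to 4293 and 2382 to 4027 for neurons. Of the 6 measured oligodendrocyte markers 3 lay above 0 (Olig1 at -0.28 ± 0.31, Sox10 at 0.08 ± 0.10), and all 6 microglia markers did (Cx3cr1 at 0.19 ± 0.09, Aif1 at 0.12 ± 0.10), as did 3 of 6 endothelial markers (Cdh5 at 0.17 ± 0.10, Flt1 at -0.10 ± 0.11, all SE). Cdh5 had the same value on both arrays numbered 1, so its difference came from pairs 2 and 3, at 0.34 and 0.17. The microglial Aif1, Itgam and P2ry12 were dim on all 6 arrays. The treated arrays of Cx3cr1 all lay above its controls (2.63% of all genes). At an unadjusted p under 0.05 there was 1 neuron marker (Rbfox3) and 0 in the other lists of this paragraph, where 1.48% of all genes lay under it. With the block, where 5.78% did, there were 2 neuron markers (Map2 and Rbfox3), 1 astrocyte marker (Aldh1l1) and 1 oligodendrocyte marker (Olig1). Among microglia and endothelial markers there were 0.

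The genes whose profile over the 6 arrays was most like that of Prelp, each gene centred on its own mean, were Lcn8, Wscd2 and Dio2. Their root mean square difference from the Prelp profile was 0.12, 0.14 and 0.16 log2 units. Lcn8, a lipocalin, measured 6.81, 6.73 and 6.67 in controls and 7.81, 7.62 and 7.76 with 1,25D, and rose (adjusted p = 0.042 by limma). Lcn8 was dim on 2 of the 6 arrays, both of them controls. Dio2, the deiodinase that makes active thyroid hormone, had a difference of 0.85 ± 0.10 (SE, adjusted p = 0.074), and Wscd2 of 0.74 ± 0.11 (SE, adjusted p = 0.24). The likeness counts the difference between treated and control arrays and so is a description of these 6 arrays.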

How the data were processed

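Per the submitters' processing notes, the authors ran RMA (background correction, normalisation and summary) through Affymetrix Expression Console; the table they deposited holds intensity on a linear scale. Its version, build and filters were not stated. Log2 was taken of each intensity. Of 35556 rows, the 21789 with 1 gene symbol in GEO's platform annotation stood for 19938 genes; the brightest row by mean was kept for the 999 genes that had more than 1. The difference, 1,25D minus control, was fitted over all genes in R 4.3.3 by limma 3.58.1, using lmFit and untrended eBayes. P-values were adjusted over all genes (Benjamini-Hochberg, threshold 0.05), and the fit was tested on simulated data. Intervals are 95% intervals of that fit.

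Deviations from the group means correlated at 0.51, 0.65 and 0.46 for equal replicate numbers, so the numbers were treated as pairs in a second fit; the labels themselves state no pairing. The labels call the arrays biological replicates without saying whether litters or culture days differed, and p-values reflect the scatter among these arrays.

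The members and the 7 pathway and 7 marker lists were chosen with earlier results of these data known. List members were named where they passed in either fit, at most 4 a list, or else as the 2 with the smallest unadjusted p. Vdr and S100g were named as checks of the treatment, and the 3 genes most like the member with the smallest p were named by the root mean square difference of their centred profiles. Alternatives were quantile normalisation, median centring, a filter on dim genes, a variance trend, the mean of a gene's rows, array weights, the block, and leaving out arrays. Promoter windows are from RefSeq (GRCm38.p6), since no build is named for the arrays. Protein features of the members were not analysed here.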

Additional observations from a re-analysis of the deposited data

How the results depend on the processing

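Under the 20 alternatives, of which the block combined with quantile normalisation, median centring, array weights or the filter on dim genes was chosen after seeing the data, the difference of Prelp stayed between 0.80 and 1.00 and that of Podn between -0.53 and -0.26. The count of members called was 1 (Prelp) with the replicate block without replicate 1 and with the replicate block and array weights, and 0 in the other settings. The cause was not tested.
Over all genes, 5 were called without the block. The count was 3 after quantile normalisation, 18 with the replicate block, and 10, 16, 40 and 18 with the block together with quantile normalisation, median centring, array weights or the filter. Blocked fits without replicate 1, 2 or 3 gave 40, 3 and 45. Leaving out 1 array gave 0 (control 3 or 1,25D 3) to 2 genes, and 0 members; these fits hold fewer samples.
Members with small differences changed sign when 1 array was left out. The range was -0.087 to 0.40 for Bgn, -0.0088 to 0.13 for Dcn, -0.010 to 0.11 for Lum, -0.062 to 0.32 for Fmod, -0.32 to 0.22 for Ogn, -0.46 to 0.42 for Omd, -0.0038 to 0.22 for Aspn and -0.15 to 0.069 for Kera. In the blocked fit without replicate 1, Bgn was at -0.079, Dcn at -0.044 and Omd at 0.16, and in that without replicate 3 they were at 0.47, 0.17 and -0.63, outside the ranges above (adjusted p = 0.16, 0.52 and 0.10). No list count moved from 0 in the settings run for it. The replicate block over all 3 pairs changed the call of no member and no list member.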
